A study of Drosophila melanogaster with 12 samples.

Results

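The small nuclear RNA (snRNA) genes of Drosophila melanogaster are described here as they stand in the annotation of transcription units made for a study of RNA polymerase II. Members were all genes whose symbol in the annotation starts with snRNA:, which gave 32 of 17698 genes, held in 28 of 15991 units. They were grouped by U type as the symbol gives it, and the part after the type is the cytological band of the copy (snRNA:U5:14B, for example). The study profiled S2 cells, a cultured male fly line, by mNET-seq, in which polymerase is immunoprecipitated and the growing RNA inside it is sequenced. Its 12 libraries form 6 groups of 2 replicates: total Pol II or Pol II with serine 5 of its C-terminal domain phosphorylated, each after control RNAi (GST in the titles), MSL1 RNAi or MOF RNAi. The design text reads as RNAi for 2 days in the control and MSL1 groups and 4 days in the MOF groups. The annotation carries a value for 0 of the 12 libraries, so no expression level, depth or effect of RNAi is given for any snRNA gene.

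The spliceosomal snRNAs are the RNA cores of the particles that remove introns. U1 pairs with the 5′ splice site and U2 with the branch point, and U4, U5 and U6 join as a particle in which U4 holds U6 until activation. U11, U12, U4atac and U6atac replace U1, U2, U4 and U6 on the rare introns of the minor class, while U5 serves both. In flies, U6, U6atac and 7SK are made by RNA polymerase III and the other spliceosomal snRNAs and U7 by RNA polymerase II, from short intronless genes.

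The 5 snRNA types of the major spliceosome accounted for 24 of the 32 genes, and each had several copies. U5 had 7 copies, U2 had 6, U1 had 5, and U4 and U6 had 3 each. The 4 types used only by the minor spliceosome, U11, U12, U4atac and U6atac, had 1 copy each. The remaining 4 genes, U7, 7SK, U3 and LU, were also single copies in the annotation. U7 guides the 3′ end cleavage of histone mRNAs, 7SK holds the elongation kinase P-TEFb inactive, and U3 is known for its part in pre-rRNA processing. RefSeq lists a further 7SK gene, given below. Other genes with U3 in their symbol carry the prefix snoRNA: in the annotation and are not members.

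Copies of a type had nearly the same length. All 5 U1 genes were 164 bp and all 3 U6 genes 107 bp long. The U2 genes were 192 bp in 5 cases and 191 bp for snRNA:U2:38ABb. The U4 genes measured 142, 143 and 148 bp. U5 varied most, from 110 bp for snRNA:U5:14B to 131 bp for snRNA:U5:23D, with 127 bp in 3 copies. Among the single-copy genes, U7 was the shortest at 71 bp, followed by U6atac at 97 bp, LU at 116 bp, U4atac at 160 bp, U3 at 211 bp, U12 at 238 bp, U11 at 275 bp and 7SK at 444 bp. Sequence identity between copies was not examined, and reads from copies that are nearly identical can be hard to assign to 1 of them.

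Arm 2L held the most snRNA genes, 17 of 32 (53.1%, 95% exact binomial interval 34.7 to 70.9%), where it held 19.8% of all nuclear genes. Arm 3R held 9, 3L held 4 and X held 2, and none was listed on 2R, 4 or Y. The X share was 6.25% (0.766 to 20.8%), beside 15.1% of all nuclear genes, and the interval includes that value. Because copies lie in runs, they are not independent draws from the genome, and these intervals describe counting error only. The X pair, snRNA:U5:14B and snRNA:U2:14B, are copies of types that also had 6 and 5 copies on autosomes. The X held no copy of any other type. MSL1 and MOF, the targets of the RNAi, are members of the MSL complex, which raises transcription of the male X. snRNA:U5:14B and snRNA:U2:14B are the snRNA genes of that chromosome.

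U2 and U5 genes stood head to head in 4 places. In each, a U2 and a U5 gene lay on opposite strands with their starts facing away from each other and no other gene lying wholly between them. The closest were snRNA:U2:34ABc (minus strand of 2L, 13244370 to 13244561, FBgn0041720) and snRNA:U5:34A (plus strand, 13244848 to 13244974, FBgn0003935), with starts 287 bp apart. The non-coding gene CR45330, on the plus strand, covered the U2 gene and ran 163 bp into the space between the pair. On X, snRNA:U5:14B (minus, 16254008 to 16254117, FBgn0003933) and snRNA:U2:14B (plus, 16254672 to 16254863, FBgn0003920) had starts 555 bp apart. The X pair was isolated: each gene was the other's nearest unit, and the next unit on the same strand was 11124 bp away for the U5 gene and 16087 bp for the U2 gene.

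The other 2 pairs lay together on 2L at band 38AB, in the run with the most snRNA genes. The run held 5 genes in 5807 bp. From left to right they were snRNA:U4:38AB (plus, 19810734 to 19810875), snRNA:U5:38ABa (minus, 19811948 to 19812074), snRNA:U2:38ABb (plus, 19812646 to 19812836), snRNA:U2:38ABa (minus, 19815614 to 19815805) and snRNA:U5:38ABb (plus, 19816414 to 19816540). The starts of snRNA:U5:38ABa and snRNA:U2:38ABb were 572 bp apart and those of snRNA:U2:38ABa and snRNA:U5:38ABb 609 bp. The pairs were mirror images, with the U2 genes on the inside pointing towards each other and the U5 genes on the outside. The U2 genes were 2777 bp apart, with CG13962 between them. These 4 pairs took up 4 of the 6 U2 genes and 4 of the 7 U5 genes.

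**Figure D1:**
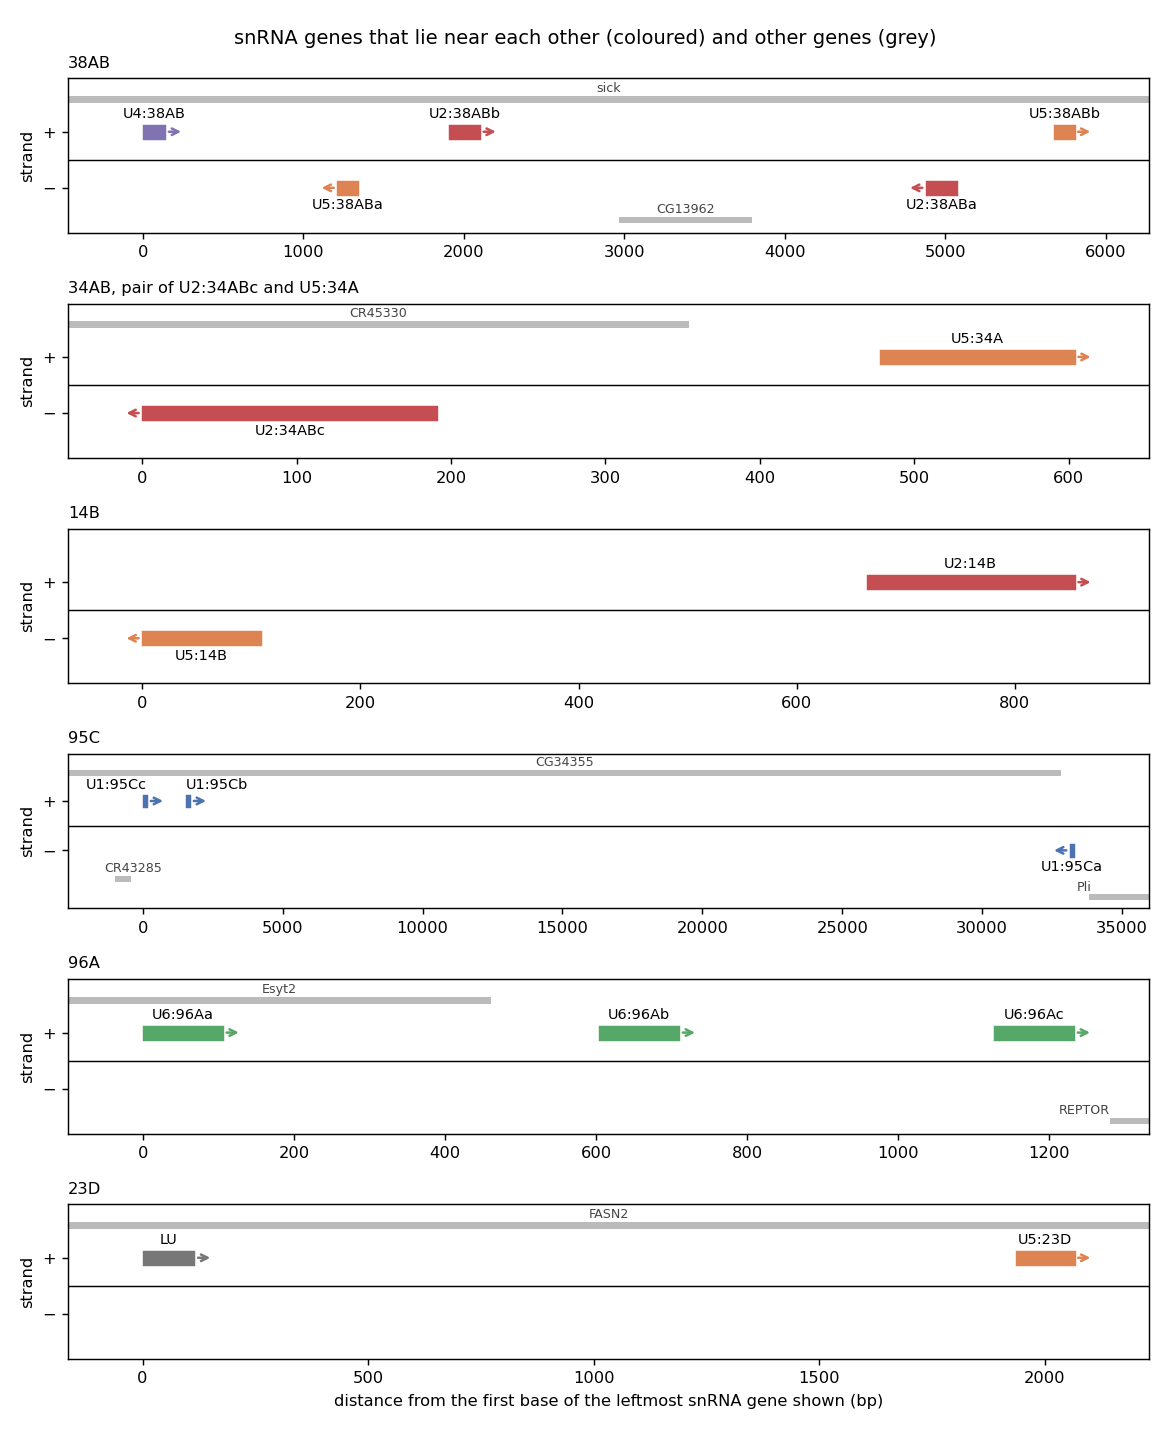
Maps of 6 places with neighbouring snRNA genes on the dm6 build, with the distance in bp from the first base of the leftmost snRNA gene on the x axis (each panel has its own scale) and the strand on the y axis. Coloured boxes are snRNA genes with an arrow in the direction of transcription, grey bars are other genes; the head-to-head U2 and U5 pairs are seen at 38AB, at 34AB and at 14B, and the 3 U6 genes in tandem at 96A.

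The remaining U2 and U5 genes were not in such pairs. snRNA:U2:34ABa (minus strand of 2L, 13211925 to 13212116) and snRNA:U2:34ABb (plus, 13215839 to 13216030) faced away from each other with starts 3723 bp apart, but kek4, which encodes a kekkon family transmembrane protein, lay between them. The start of kek4 was 489 bp from that of snRNA:U2:34ABb. snRNA:U5:35D (minus strand of 2L, 15751557 to 15751682) started 581 bp from Mtr4, an RNA helicase gene of the nuclear exosome pathway. snRNA:U5:63BC (plus strand of 3L, 3090801 to 3090923) ended 61 bp before the nearest unit, that of Cht7 and a lysine tRNA gene, and its nearest divergent start was 19962 bp away. snRNA:U5:23D (plus strand of 2L, 3048701 to 3048831) lay 1820 bp after snRNA:LU (3046765 to 3046880) on the same strand.

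U6 and U1 copies were arranged differently. The 3 U6 genes formed a tandem array of 1234 bp on the plus strand of 3R: snRNA:U6:96Aa (24556088 to 24556194, FBgn0004188), snRNA:U6:96Ab (24556692 to 24556798, FBgn0004189) and snRNA:U6:96Ac (24557215 to 24557321, FBgn0004190). They were separated by 497 and 416 bp. Just 46 bp beyond the end of snRNA:U6:96Ac came the unit of REPTOR, a transcription factor gene of the TORC1 response. Of the U1 genes, snRNA:U1:95Cc (plus strand of 3R, 23826334 to 23826497) and snRNA:U1:95Cb (23827870 to 23828033) were in tandem, 1372 bp apart. snRNA:U1:95Ca (minus, 23859467 to 23859630) lay 31433 bp further on and pointed towards them. snRNA:U1:21D (minus strand of 2L, 901491 to 901654) and snRNA:U1:82Eb (minus strand of 3R, 4947933 to 4948096) stood alone, with the nearest snRNA genes 531056 and 246907 bp away. The 3 U4 genes were also apart from one another, at 25F, 38AB and 39B of 2L.

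Across all types, 18 of 32 snRNA genes (56.2%, 95% exact binomial interval 37.7 to 73.6%) lay at most 10 kb from another snRNA gene. They formed 7 runs, 6 of them of 2 or 3 genes. No corresponding share is given for other classes of gene. It is therefore not shown whether such runs are particular to snRNA genes. Of the 11 neighbouring pairs inside these runs, 5 were divergent, 4 in tandem and 2 convergent. The pairs joined different types in 6 cases. A divergent pair joined different types in 4 of 5 cases, and all of these were U2 with U5.

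Measured from the genes' own starts, 12 of 32 snRNA genes (37.5%, 95% exact binomial interval 21.1 to 56.3%) had a divergent start of another gene at most 1000 bp away, beside 32.4% of all genes. The total at this limit was thus near the background, but it was unevenly spread over the types. U2 and U5 contributed 10 of their 13 genes, and all other types 2 of 19: snRNA:U1:95Cc, 427 bp from the non-coding gene CR43285, and snRNA:U6atac, 393 bp from CG42819. No U4 and no U6 gene was among them, and the nearest divergent start lay 6134 bp or more away for each of these. Genes that overlap are not counted as divergent, however close their starts. Left out in this way were snRNA:U4:25F and CR44794, with starts 136 bp apart, and snRNA:U11 and Fie, 756 bp apart. In 8 of the 12 cases the partner was itself an snRNA gene. These 8 are the 4 head-to-head pairs of U2 and U5 described above, each counted from both genes. This split by type was noticed in the data and has no test. For tRNA genes the corresponding share was 32.3%, for snoRNA genes 10.7% and for miRNA genes 8.27%.

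**Figure D2:**
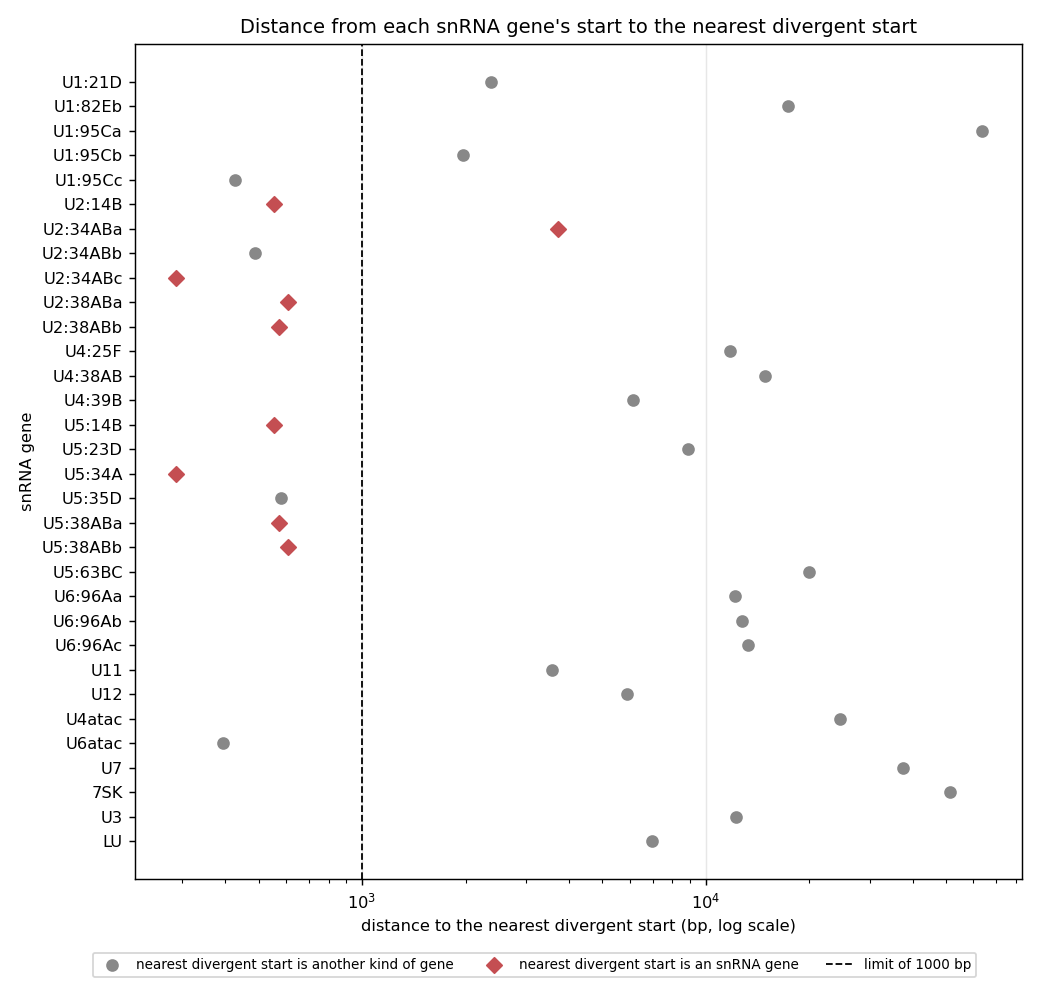
Distance in bp (log scale, x axis) from the start of each of the 32 snRNA genes (y axis) to its nearest divergent start. Such a start lies on the other strand and faces away from the snRNA gene, and its gene does not overlap it. Red diamonds mark a partner that is an snRNA gene and grey points any other partner; U2 and U5 hold 10 of the 12 genes to the left of the dashed line at 1000 bp.

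The starts of units gave another set of genes, because a unit that merges an snRNA gene with its host starts where the host starts. By unit, 10 of 28 snRNA units (35.7%) had a divergent start at most 1000 bp away, against 33.1% of all units. These units held 12 snRNA genes, of which 9 were also among the 12 found by gene start. Among the 9, snRNA:U2:38ABb and snRNA:U5:38ABb had different partners by the 2 measures. By unit, the distance of 514 bp was that of the start of sick. By gene, it was 572 and 609 bp to an snRNA gene. snRNA:U5:38ABa, snRNA:U2:38ABa and snRNA:U1:95Cc were found only by gene start. At the level of units, the nearest divergent start of the first was 146639 bp away in place of 572 bp. snRNA:U4:38AB, snRNA:U4:39B and snRNA:U6:96Aa were found only by unit start, through the starts of sick, Atg18b and Esyt2.

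In the annotation, 11 of 32 snRNA genes (34.4%, 95% exact binomial interval 18.6 to 53.2%) shared a unit with another gene, where 16.1% of all genes did. Among genes shorter than 500 bp the share was 31.0%. That set includes the small RNA genes, and its share without them was not computed. The 11 lay in 7 units, and in each of the 7 a protein-coding gene of the same strand spanned the whole unit, so the snRNA gene lay inside that host. The hosts were long, from 8251 to 162060 bp, and the snRNA genes made up between 0.0749% and 2.03% of the unit's length. The annotation gives no exons, so it is not stated whether the snRNA genes lie in introns.

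The sick unit (plus strand of 2L, 19796365 to 19958424) held the most, snRNA:U4:38AB, snRNA:U2:38ABb and snRNA:U5:38ABb, between 14369 and 20049 bp from its start, together with the non-coding genes CR43828 and CR43827. CG34355 (plus strand of 3R, 23803859 to 23859167) held snRNA:U1:95Cc and snRNA:U1:95Cb. FASN2, a fatty acid synthase gene (plus strand of 2L, 3043947 to 3056143), held snRNA:LU and snRNA:U5:23D. The other hosts had a single snRNA gene each. Atg18b, an autophagy gene (minus strand of 2L, 21212322 to 21220572), held snRNA:U4:39B (21215036 to 21215178) and also the protein-coding gene CG8679. Eip63E, which encodes a cyclin-dependent kinase (plus strand of 3L, 3515751 to 3610521), held snRNA:U7 (3593823 to 3593893), and cno, which encodes the junction protein Canoe (minus strand of 3R, 5170004 to 5217456), held snRNA:U4atac (5195004 to 5195163).

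Esyt2, an extended synaptotagmin gene (plus strand of 3R, 24544719 to 24556549), held snRNA:U6:96Aa and an aspartate tRNA gene near its end. The first U6 gene ended 355 bp before the end of the Esyt2 unit, and the second began 142 bp after it. Of 3 neighbouring U6 copies, the annotation thus counted 1 with a protein-coding gene and 2 as units of their own. Across the 11 merged genes, the distance from the start of the unit to the snRNA gene ran from 2818 bp for snRNA:LU to 78072 bp for snRNA:U7. The starts of the hosts' individual transcripts were not examined.

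**Figure D3:**
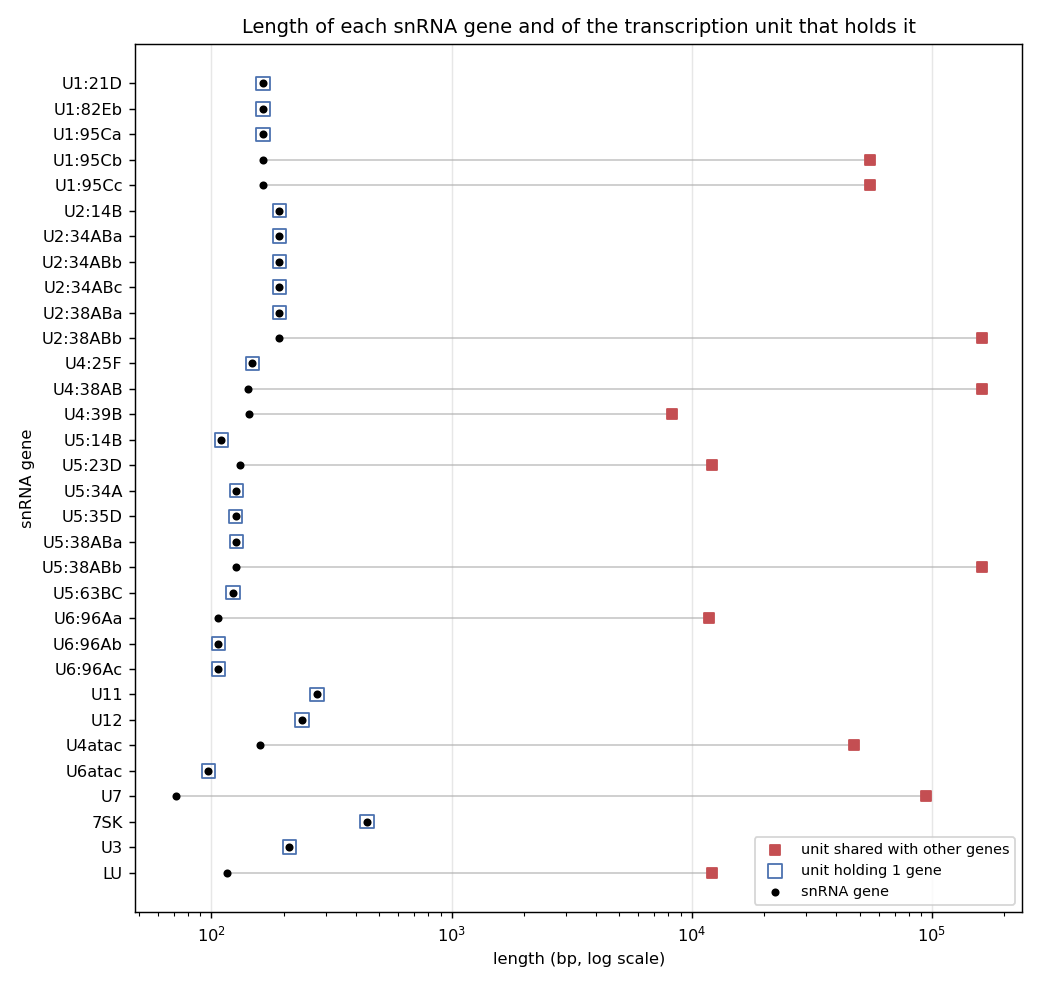
Length in bp (log scale, x axis) of each of the 32 snRNA genes (black points) and of the transcription unit that holds it (squares), by gene (y axis). For the 21 genes alone in a unit (open squares) the lengths coincide, and for the 11 genes in shared units (filled squares) the unit is 8251 to 162060 bp long.

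The other 21 snRNA genes were alone in their units. Of these units, 20 matched the gene's RefSeq span to the base, and the unit of snRNA:U3 was not matched to it. Their lengths ran from 97 to 444 bp (median 164 bp). All units of the annotation had a median length of 1817 bp.

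A unit on the other strand overlapped the unit of 13 of 32 snRNA genes (40.6%, 95% exact binomial interval 23.7 to 59.4%), close to the 40.8% of all genes. For 7 of these 13 the overlap touched the host and not the snRNA gene. Taken by their own spans, 6 of 32 genes (18.8%) had such an overlap, and 5 of them (15.6%, 5.28 to 32.8%) lay wholly inside the other unit. Among all genes, 10.6% lay wholly inside a unit of the other strand, and among genes shorter than 500 bp, small RNA genes included, 15.6% did.

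The 5 nested genes included both single-copy RNAs that recognise the minor class introns. snRNA:U11 (minus strand of 3L, 3893056 to 3893330, FBgn0083987) lay inside Fie (3892574 to 3894833), and snRNA:U12 (plus strand of 3L, 16653769 to 16654006, FBgn0041721) inside Baldspot, a fatty acid elongase gene (16648442 to 16661615). snRNA:U5:38ABa and snRNA:U2:38ABa were nested in sick, which also held the other 3 genes of that run on its own strand. Thus 5 snRNA genes of 3 types lay within the span of sick, 3 in its orientation and 2 against it. snRNA:U2:34ABc lay within the non-coding gene CR45330 (13241807 to 13244724). The sixth gene, snRNA:U4:25F (plus strand of 2L, 5565619 to 5565766), was overlapped along 137 bp by the start of the non-coding gene CR44794 (5564811 to 5565755).

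Over both strands, 16 of 32 snRNA genes (50%, 95% exact binomial interval 31.9 to 68.1%) lay inside another gene of the same strand or a unit of the other strand, against 17.6% of all genes. Genes shorter than 500 bp gave 43.6% (41.5 to 45.8%) and tRNA genes 45.8% (40.0 to 51.6%), both within the interval of the snRNA genes. miRNA genes gave 80.7% (75.3 to 85.4%) and snoRNA genes 95.5% (92.0 to 97.7%). The snRNA share thus lay near that of tRNA genes and below those of miRNA and snoRNA genes. Its interval did not overlap those of the last 2. The set shorter than 500 bp includes short snRNA, tRNA, miRNA and snoRNA genes. Its share without them was not computed, so it does not show where other short genes lie. By role, 11 of 24 genes of the major spliceosome types, 3 of 4 genes of the minor spliceosome (U6atac being the exception) and 2 of 4 others (U7 and LU) were inside another gene or unit.

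**Figure D4:**
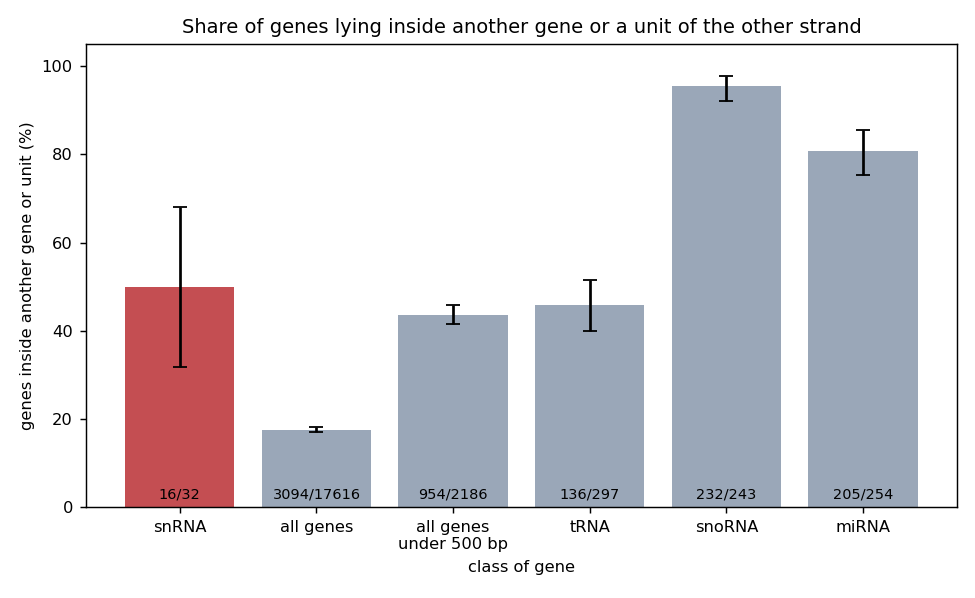
Share of genes in percent (y axis) that lie inside another gene of the same strand or a unit of the other strand. Classes (x axis) are snRNA genes, all genes, genes shorter than 500 bp (small RNA genes included), and tRNA, snoRNA and miRNA genes. Bars start at 0, whiskers are 95% exact binomial intervals and the counts stand at the foot of each bar; 16 of 32 snRNA genes are inside another gene.

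The remaining 15 snRNA genes were free of any other unit. The gap from each to its nearest unit ran from 46 bp for snRNA:U6:96Ac to 3551 bp for snRNA:U3 (plus strand of 2L, 1432711 to 1432921), with a median of 259 bp, beside 257 bp over all 9647 units free of overlap. The nearest unit lay beyond the end of the gene in 10 of 15 cases (66.7%, 38.4 to 88.2%), beside 57.9% of all units free of overlap. snRNA:U1:21D, for example, ended 174 bp from Lsp1beta, a larval serum protein gene, and snRNA:U6atac (plus strand of 2L, 8389724 to 8389820) 60 bp from CG42820. snRNA:7SK (minus strand of 3R, 7474553 to 7474996, FBgn0065099) ended 771 bp from the unit of CG1142 and scaRNA:MeU5-C46, a small Cajal body RNA gene. snRNA:U1:95Ca ended 299 bp from the unit of CG34355, the host of the other U1 genes of that band, on the other strand. RefSeq lists a further 7SK gene, snRNA:7SKb (3R, 23432869 to 23433272), to which no unit was matched by name. Its span lies within that of the unit of CG4374 and CG43694.

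Protein genes that work with snRNAs were looked up by name in a list of 31 symbols, and 26 were matched to a unit. The list draws on the SNAPc factor that starts snRNA transcription, the Sm and LSm rings, the U1 and U7 proteins, the SMN assembly pathway and the 7SK particle. SmG, LSm2, LSm5, LSm6 and HEXIM were not matched, so the Sm and LSm rings and the 7SK particle are covered in part. The units of the 26 matched genes had a median length of 1321.5 bp, and 5 were shared with other genes. An overlap on the other strand was seen for 15, and a divergent start at most 1000 bp away for 19. Over the whole annotation, 16.1% of genes shared a unit, 40.8% of genes had a unit with such an overlap, and 33.1% of units had such a start. These shares include non-coding and small RNA genes, where the 26 are protein genes. Of the 26 genes, 2 lay on X, snf and Larp7. The start of snf, which encodes the fly protein of the U1 and U2 particles, was 259 bp from that of Cdk7. CG2021 and Lsm10, a protein gene of the U7 particle, had the closest divergent neighbours of the list, at 28 bp from mRpL46 and 36 bp from RpS15Ab. For the SNAPc subunits, the unit of Pbp49 started 108 bp from Pabp2 and that of Pbp95 590 bp from CG10435, while Pbp45 lay wholly within a unit on the other strand and had no divergent start nearer than 7019 bp.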

How the data were processed

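The analysed file is the annotation of transcription units deposited by the authors. It holds 1-based start and end positions and no value of any library. Per the file headers it was written with rtracklayer 1.48.0 from merged database versions. The rule for merging genes is not stated in its header or the labels. Per the submitters' processing notes, the build was dm6 and cutadapt 2.8, STAR 2.7.4a, SAMtools 1.20, DESeq2 and DESeq were named. The labels also list a coverage file summed over strands, which was not analysed here.

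Gene spans came from the RefSeq table of the same assembly (Release 6), matched by symbol, synonym or locus tag within the unit (17598 of 17698 genes; 30 snRNA genes by symbol, 1 by synonym). The table gives no strand, so a gene took the strand of its unit. snRNA:U3 took the span of its unit. Comparisons of gene spans used the 17616 nuclear genes with a span. That left 243 of 273 snoRNA genes. The set of genes shorter than 500 bp includes the small RNA classes.

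Gaps count the bases up to the next unit, with 0 for overlapping units. An overlap is at least 1 bp. Divergent starts lie on opposite strands and face away from each other. Genes or units that overlap each other are not counted as divergent. Intervals are 95% exact binomial (Clopper-Pearson) intervals and describe counting only. Members of a run share their surroundings, and no test was made. Distances were checked against a pairwise loop on 120 simulated intervals, with 0 mismatches. Every member is named, with the genes that share its unit or overlap the member itself, and for the free ones some nearest units. Units that overlap only a host are not all named. Members and lists, the protein list included, were chosen with earlier results of these data known. A planned search of promoters for motifs was not made, since no promoter sequence was used here. Tools were Python 3.11.15 with pandas 2.3.3, SciPy 1.17.1, NumPy 2.4.6 and, for plots, Matplotlib 3.10.9.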

Additional observations from a re-analysis of the deposited data

How the results depend on the processing

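No paired analysis was possible because the annotation has no value per library, and no replicate could be left out for that reason. The share of snRNA genes overlapped on the other strand was 18.8% by the span of the gene itself in place of 40.6% by unit, since overlaps that touch only a host are then left out. The median gap from the 28 snRNA units to their nearest unit was 116.5 bp on either strand, 1000 bp on the same strand and 279 bp over the 18 units free of overlap. Over all units of the annotation the medians were 70 bp, 1057 bp and, for units free of overlap, 257 bp. With a limit of 500 bp, 14.3% of snRNA units had a divergent start, in place of 35.7% at 1000 bp and also at 2000 bp. The share over all units, 33.1%, is given for 1000 bp only, so the other limits have no background here. Within 1 kb of another snRNA gene lay 34.4% of the genes, in place of 56.2% within 5 or 10 kb. Within the interval of the value given stayed overlaps of at least 100 bp, gene spans for nesting, the RefSeq class in place of the symbol, runs at 50 kb, and units holding only snRNA genes (median length 164 bp in place of 192 bp). The overlapped share of snRNA units minus that of all units was -3.41 percentage points (-20.5 to 16.8, from the exact interval of the snRNA share). It was -9.46 with 1-gene units alone and -3.18 with units shorter than 1000 bp, both for the snRNA units and the background. The gene starts used for divergent pairs were chosen after seeing the data. The motif searches in promoters and their alternatives were not run. The number of members limits every share: with 32 genes, an observed 50% has an interval from 31.9 to 68.1%.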
